A study of Bos taurus with 21 samples.

Results

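Small RNA of extracellular vesicles from the milk of 7 cows with subclinical mastitis was compared with that of 7 healthy cows, over every entry of the deposited table. These are 14 of the 21 libraries of the series, chosen by the group that their labels give. The other 7 come from cows with clinical mastitis. They enter here into the fit by entry, through the estimate of the spread and the choice of the entries tested. Each library came from a different cow (Bos taurus), and the labels name no agent, treatment, age or breed for either group. The libraries are called subclinical 1 to 6 and 8, and healthy 1 to 6 and 9. One of them, subclinical 4, stands apart from the other 13 in its named miRNAs, so the comparisons between the groups are given with and without it.

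Extracellular vesicles are membrane-bound particles that cells release, and milk vesicles carry small RNA from the mammary epithelium and from immune cells in the udder. Subclinical mastitis is an inflammation of the udder in which milk and udder look normal. MicroRNAs (miRNAs) are short RNAs that pair with messenger RNAs through their seed and lower the output of those targets; miR-21-5p, the let-7 family and the miR-30 family are among those usually found in cow's milk.

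The table lists 126 entries, 89 with a miRNA name (79 bovine, 7 human, 2 mouse and 1 pig by prefix) and 37 with a provisional identifier such as X_42271, for which the files hold neither gene nor sequence nor position. Of these, 116 were above 0 in at least 1 of the 14 libraries (84 named, 32 provisional), and 19 were above 0 in all 14, none of them named. Values are RPM, reads per 1000000 reads of the listed entries, and their steps give the reads behind them: 1785 to 4979 per subclinical library (mean 3313 ± 1112, SD, n = 7) and 954 to 9587 per healthy library (4580 ± 2821, n = 7). A single read was therefore worth 200.8 to 560.2 RPM in subclinical and 104.3 to 1048 RPM in healthy libraries, and 74.7% of the 1764 values were 0. Because an RPM value is a share, a higher value of one abundant entry lowers the others, and in such bulk samples fewer vesicles of a kind and less RNA in each cannot be told apart.

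A small set of provisional entries made up most of the reads in both groups. X_42271 took 27.8% ± 5.21 of the reads in subclinical and 26.2% ± 5.43 in healthy libraries (SD, n = 7 each). The next entry, 16_27381, took 24.9% ± 4.85 in subclinical and 22.9% ± 4.80 in healthy libraries, and 2_2827 took 15.4% ± 2.83 in subclinical and 16.2% ± 3.62 in healthy libraries. Entries 16_27381 and X_42271 kept nearly fixed proportions. Their ratio was 0.874 to 0.940 in subclinical and 0.843 to 0.923 in healthy libraries, with a coefficient of variation of 3.06% over the 14. The SD of their log2 ratio over the 14 was 0.0439, below the 0.0743 that independent counting of their reads would give. The ratio of 2_2827 to X_42271 varied more, from 0.496 to 0.596 in subclinical and 0.561 to 0.674 in healthy libraries. Its coefficient of variation was 8.16%.

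A further set, 17_28610, X_41367 and 17_28203, was high where the 3 leading entries were low. Since both sets are large shares of the same total, this opposition is in large part fixed by the scale. Entry 17_28610 ran from 4.28% in subclinical 4 to 30.3% in subclinical 3, and from 4.44% in healthy 3 to 28.5% in healthy 6. The 3 leading entries together took 71.1% in subclinical 4, 45.6% in subclinical 3, 85.2% in healthy 3 and 43.6% in healthy 6. The ratio of X_41367 to 17_28610 stayed at 0.368 to 0.460 in subclinical and 0.451 to 0.515 in healthy libraries. Its coefficient of variation was 8.36% over the 14, so these 2 entries moved almost as one. The SD of their log2 ratio was 0.125, below the 0.172 of independent counting. Entry 17_28203 followed less closely. Its ratio to 17_28610 was 0.137 to 0.379 in subclinical and 0.124 to 0.267 in healthy libraries, a coefficient of variation of 30.2%. Likewise 18_29617 and 2_4412 had the same read count in every one of the 14 libraries, and 29_39931 lay within 2 reads of them and equal to them in 8; their tests are not independent.

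**Figure D1:**
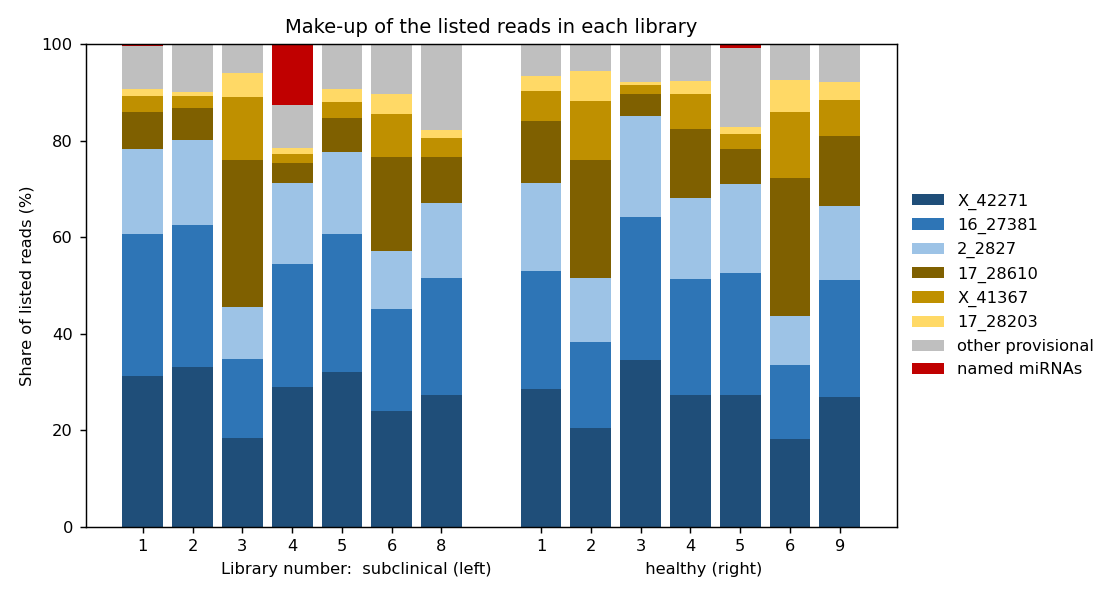
Share of the listed reads (%, vertical axis) in each of the 7 subclinical libraries (left) and 7 healthy libraries (right), stacked by entry. The blue bars (X_42271, 16_27381, 2_2827) are short where the brown ones (17_28610, X_41367, 17_28203) are tall, as in subclinical 3 and healthy 6. Shares of the same total are in part bound to do so. Named miRNAs (red) reach 12.7% in subclinical 4 and at most 0.734% elsewhere.

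The share of X_42271, the most abundant entry on average (17_28610 was above it in subclinical 3, healthy 2 and healthy 6), differed by 1.64 percentage points between subclinical and healthy libraries (exact two-sided permutation test over 3432 regroupings, p = 0.559). Without subclinical 4 the subclinical mean was 27.6% ± 5.68 (n = 6) and the exact p = 0.630. The effective number of entries, the exponential of the Shannon entropy, averaged 7.47 ± 1.45 in subclinical and 6.96 ± 0.877 in healthy libraries (exact permutation p = 0.462), and 7.03 ± 0.948 in subclinical libraries without subclinical 4 (p = 0.895 by the same exact test). Provisional entries above 0 numbered 23.4 ± 0.976 per subclinical and 23.7 ± 1.70 per healthy library (exact permutation p = 0.846, and 0.846 without subclinical 4). The number of listed reads did not separate the groups either (exact permutation p = 0.311, and 0.375 without subclinical 4). Adjusted by Benjamini-Hochberg over the 6 library measures, these 4 and the 2 of named miRNAs given further on, every p was 0.189 or more with subclinical 4 and 0.315 or more without it.

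Entry by entry, the subclinical and healthy libraries differed most in 2 provisional entries of intermediate abundance, 13_22779 (lower mean in subclinical milk) and 6_10969 (higher mean), in the scarce entry 27_38734, and in miR-21-5p. None of these differences passed the adjusted threshold. By limma's moderated two-sided test on log2(RPM + 1) with Benjamini-Hochberg adjustment, 0 of 126 entries had an adjusted p under 0.05 (0%), and 6 (4.76%) had an unadjusted p under 0.05, 5 with a higher and 1 with a lower mean in subclinical milk. Without subclinical 4, 76 entries were tested, 0 passed (0%), and 5 (6.58%) had an unadjusted p under 0.05, 4 higher and 1 lower. The entries 13_22779, 6_10969, 27_38734 and miR-21-5p were in both sets of unadjusted calls. An exact permutation test of each entry gave 0 adjusted calls, a smallest adjusted p of 0.110, and 5 of 126 (3.97%) at an unadjusted p under 0.05. Of the 126 entries, 10 were at 0 in all 14 libraries and 51 were read in subclinical 4 alone. The exact test could not call such entries, and the limma p was 0.203 even for miR-24-3p, with 15 reads there. They count in the adjustment and in these percentages, which are therefore not to be read as a chance rate. In a fit of the 14 libraries alone those 4 entries passed, 4 of 116 (3.45%), and the same 4 passed without subclinical 4, where 65 entries were tested (6.15%). In no entry were the groups apart without overlap (0%).

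Entry 13_22779 had 2004 RPM in the lowest, 2933 in the median and 5631 in the highest subclinical library, against 4319, 13085 and 26854 RPM in healthy libraries. In reads it held 6 to 17 per subclinical library, 74 in all, against 9 to 229 per healthy library, 579 in all. Of the subclinical libraries, 5 lay below the lowest healthy one, healthy 3, and subclinical 2 and subclinical 8 overlapped with it; all 7 lay below the healthy mean. The mean was 3398 ± 1254 RPM in subclinical and 14516 ± 8206 RPM in healthy libraries (SD, n = 7 each), 4.27-fold higher in healthy milk. The log2 difference was -1.95 (SE 0.61), with an adjusted p of 0.134 by limma and 0.110 by exact permutation. Without subclinical 4, whose value was the lowest, the subclinical mean was 3630 ± 1198 RPM (n = 6) and the log2 difference -1.84 (SE 0.53, limma adjusted p = 0.107).

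Entry 6_10969 ran the other way. It had 4565 RPM in the lowest, 11247 in the median and 16129 in the highest subclinical library, against 1048, 2276 and 6345 RPM in healthy libraries, with 244 reads in subclinical and 81 in healthy libraries. Of the subclinical libraries, 5 lay above every healthy library, subclinical 1 and subclinical 2 lay below healthy 4 and above the other 6 healthy libraries, and all 7 were above the healthy mean. The mean was 10158 ± 4152 RPM in subclinical and 2594 ± 1812 RPM in healthy libraries, 3.92-fold higher in subclinical milk. The log2 difference was 2.09 (SE 0.73), with an adjusted p of 0.214 by limma and 0.110 by exact permutation. Without subclinical 4, which lay at 11356 RPM near the median, the mean was 9959 ± 4511 RPM and the log2 difference 2.04 (SE 0.72, limma adjusted p = 0.195).

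Entry 27_38734 was scarce. It held 4, 2, 7, 1, 2, 3 and 7 reads in subclinical 1, 2, 3, 4, 5, 6 and 8, against 0, 1, 1, 0, 2, 1 and 0 reads in healthy 1, 2, 3, 4, 5, 6 and 9. It was thus above 0 in all 7 subclinical and in 4 healthy libraries, and the groups overlapped: the 2 reads of healthy 5, the library with the fewest reads, came to 2096 RPM, above 6 of the 7 subclinical libraries. The mean was 1215 ± 979 RPM in subclinical and 393 ± 764 RPM in healthy libraries. The limma adjusted p was 0.249 with subclinical 4 and 0.256 without it. Its log2 difference of 5.10 (SE 1.87) depends on the pseudocount of 1, which is far below the worth of a read, and is 1.06 with a pseudocount of 500.

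The common entry 12_21573 took 0.844% in the lowest, 2.21% in the median and 2.94% in the highest subclinical library, against 0.709%, 1.26% and 1.92% in healthy libraries. In 5 subclinical libraries it lay above all healthy ones, and in subclinical 3 and subclinical 4 within their range. The log2 difference of 12_21573 was 0.76 (SE 0.40, limma adjusted p = 0.342) and, without subclinical 4, 0.87 (SE 0.37, limma adjusted p = 0.394). The entry 4_8133, of like abundance, averaged 1.85% ± 0.610 in subclinical and 1.31% ± 0.506 in healthy libraries, a log2 difference of 0.52 (SE 0.42) that did not pass, nor did it without subclinical 4 (0.59, SE 0.39).

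**Figure D2:**
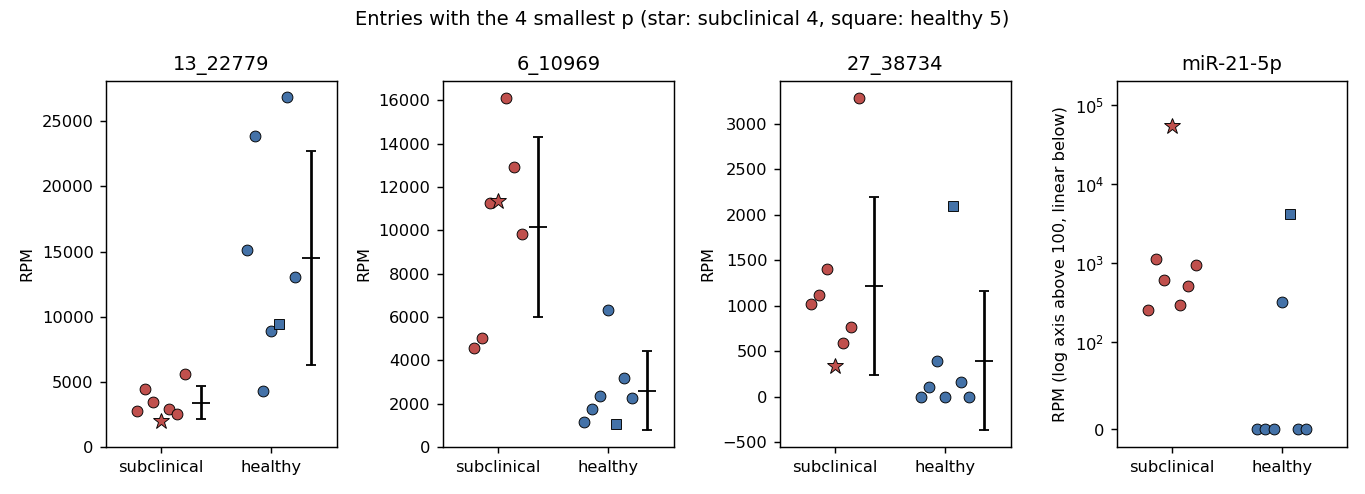
RPM (vertical axis; log axis for miR-21-5p) of the 4 entries with the smallest p in the 7 subclinical (left) and 7 healthy (right) libraries, 1 point per library, with mean and SD beside the first 3. The subclinical points of 13_22779 (2004 to 5631 RPM) lie mostly below the healthy ones, those of 6_10969 (4565 to 16129 RPM) mostly above, and miR-21-5p is at 0 in 5 healthy libraries and at 54442 RPM in subclinical 4 (star).

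The remaining abundant entries had differences that were small against their spread. The log2 differences of X_42271, 16_27381 and 2_2827 were 0.09 (SE 0.14), 0.12 (SE 0.14) and -0.06 (SE 0.17), and 0.08, 0.12 and -0.09 without subclinical 4. Those of 17_28610, X_41367 and 17_28203 were -0.41 (SE 0.30), -0.57 (SE 0.38) and -0.38 (SE 0.51), and -0.21, -0.37 and -0.26 without subclinical 4. None of these 6 passed (limma adjusted p of 0.342 or more with subclinical 4, and 0.703 or more without it). The median log2 difference over all 126 entries was 1.2, and 0.26 over the 76 tested without subclinical 4. The 1.2 is the value that 1 read in subclinical 4 alone gives with a pseudocount of 1, as for miR-106b.

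Because 13_22779 and 6_10969 have opposite signs, their balance within a library was examined, as were all ratios between the 19 entries above 0 in all 14 libraries. This comparison was chosen after the data were seen; a ratio within a library does not depend on the scaling of the library, and it shows unequal change without saying which entry of the pair differs. Of 171 pairs, 20 (11.7%) had an adjusted p under 0.05 by exact two-sided permutation with Benjamini-Hochberg adjustment, and 34 had an unadjusted p under 0.05. Entry 6_10969 was in 10 of the 20, 13_22779 in 9, and 1 pair held both. Without subclinical 4, 0 of 171 pairs passed (0%), with a smallest adjusted p of 0.0664, and 38 had an unadjusted p under 0.05. With 6 against 7 libraries the smallest exact p found by permutation was 0.00117.

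Entry 6_10969 held 1.64, 1.13, 3.29, 5.67, 5.50, 5.10 and 1.75 reads for each read of 13_22779 in subclinical 1, 2, 3, 4, 5, 6 and 8. The same ratio was 0.0769, 0.0742, 0.545, 0.714, 0.111, 0.119 and 0.174 in healthy 1, 2, 3, 4, 5, 6 and 9. All 7 subclinical libraries thus had more reads of 6_10969 than of 13_22779, and all 7 healthy libraries had fewer, so the groups did not overlap. The counts were low: 9 against 8 reads in subclinical 2, 20 against 28 in healthy 4 and 1 against 9 in healthy 5. As log2 of 13_22779 over 6_10969, the nearest libraries of the groups lay at -0.17 and 0.485. That gap is no wider than the SD of 0.658 that counting alone would give. Pairs whose groups did not overlap numbered 2 of 171 (1.17%). The log2 ratio of 13_22779 to 6_10969 differed by -4.04 between subclinical and healthy libraries (exact permutation p = 0.000583, the smallest that 7 against 7 can give, adjusted p = 0.0388) and by -3.88 without subclinical 4 (exact p = 0.00117, adjusted p = 0.0664).

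The other pair without overlap set 6_10969 against 17_28475, a provisional entry that itself averaged 0.499% ± 0.287 in subclinical and 0.548% ± 0.426 in healthy libraries. Its log2 ratio, 6_10969 over 17_28475, was 0.58 to 2.22 in subclinical and -3.81 to 0.00 in healthy libraries. The difference was 2.14 (exact permutation p = 0.000583, adjusted p = 0.0388), and 2.09 without subclinical 4 (adjusted p = 0.0664). The counts were low here too: 9 against 6 reads in subclinical 2, 20 against 20 in healthy 4 and 1 against 14 in healthy 5. The gap from 0.00 to 0.58 between the groups is below the SD of 0.660 that counting alone would give. Entry 13_22779 was lower also against 17_28610, the abundant entry of the second set: it held 0.0113 to 0.0684 reads for each read of 17_28610 in subclinical and 0.0615 to 0.132 in healthy libraries. The log2 difference of that ratio was -1.54 (exact permutation p = 0.00117, adjusted p = 0.0388) and -1.63 without subclinical 4 (adjusted p = 0.0664), and the groups overlapped in that subclinical 2 lay above healthy 4.

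Among the pairs that passed, 2 held neither entry, and their differences were small. The log2 ratio of 2_2827 to 16_27381 differed by -0.18 and that of 17_28610 to X_41367 by 0.17, subclinical minus healthy (exact permutation p = 0.00408 and 0.00524, adjusted p = 0.0388 and 0.0448), both with overlap. Without subclinical 4 these differences were -0.20 and 0.16, with adjusted p of 0.0664 and 0.0698 by the same exact test. The SD of the second log2 ratio over the 14 libraries, 0.125, was below the 0.172 of independent counting. The count of pairs that pass after adjustment changes with single libraries. It was 0 without any 1 of subclinical 1, 4, 5, 6 or 8, 6 without subclinical 3, 2 without healthy 1, 2 or 9, and 13 without healthy 5. Pairs with an unadjusted exact permutation p under 0.05 numbered 31 to 40 with 1 library left out, against 34 with all. Without subclinical 1, 3, 4, 5, 6 or 8 the smallest exact permutation p was 0.00117, with a smallest adjusted p of 0.0498 to 0.0664.

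**Figure D3:**
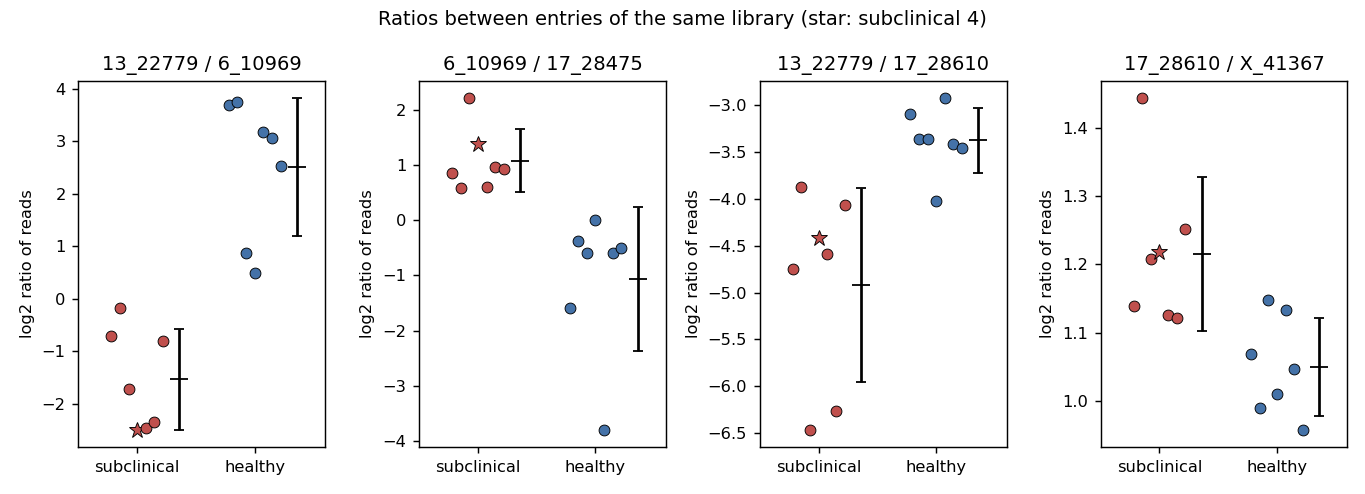
Log2 ratio of reads of 2 entries within a library (vertical axis) in the 7 subclinical (left) and 7 healthy (right) libraries, 1 point per library, with mean and SD; the star marks subclinical 4. The ratio of 13_22779 to 6_10969 lies at -2.50 to -0.17 in subclinical and 0.49 to 3.75 in healthy libraries, without overlap, while the shift of 17_28610 over X_41367 is 0.17 with overlapping groups.

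The named miRNA that came nearest to the threshold was miR-21-5p, which is expressed in many tissues and is often raised in inflammation. It held 1, 2, 3, 163, 1, 2 and 2 reads in subclinical 1, 2, 3, 4, 5, 6 and 8, against 0, 0, 0, 1, 4, 0 and 0 reads in healthy 1, 2, 3, 4, 5, 6 and 9. It was above 0 in all 7 subclinical libraries and in 2 healthy ones; 0 reads in each of the other 5 healthy libraries allow shares of up to 0.0313% to 0.118%. Healthy 5, with the fewest reads of the 14, lay above 6 of the 7 subclinical libraries. The mean was 8308 ± 20346 RPM in subclinical libraries, 619 ± 348 RPM without subclinical 4, and 644 ± 1569 RPM in healthy libraries, so that without subclinical 4 the means were close; reads were seen in each of those 6 subclinical libraries but only 2 healthy ones.

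For miR-21-5p the log2 difference was 7.12 (SE 1.94, limma adjusted p = 0.0579), and 6.16 without subclinical 4 (SE 2.02, limma adjusted p = 0.170). The exact permutation p was 0.0140 (adjusted p = 0.441), and 0.0186 without subclinical 4. The fitted sizes follow the pseudocount, from 9.49 with 0.1 to 1.35 with 500. The limma adjusted p fell under 0.05 without healthy 4 (0.0163), healthy 5 (0.00169) or clinical 3 (0.0205), and without both subclinical 4 and healthy 5 (0.00998). Healthy 4 and healthy 5 are the healthy libraries that held miR-21-5p reads, so leaving either out removes healthy reads of the entry being tested. Pooled, miR-21-5p made up 42.8% of the named reads in subclinical 4, 11 of 41 (26.8%, exact Clopper-Pearson 95% interval 14.2% to 42.9%) in the other 6 subclinical libraries, 5 of 25 (20%, 6.83% to 40.7%) in healthy libraries and 1 of 18 (5.56%, 0.141% to 27.3%) in healthy libraries without healthy 5. Intervals and limits here cover counting error only.

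The other named miRNAs among the 10 entries with the smallest p had their highest count in subclinical 4. miR-26a, which is widely expressed and abundant in milk, held 7 reads there and 1 each in subclinical 1 and subclinical 5. miR-100 held 2 reads there and 1 each in the same 2 libraries, and both were listed at 0 in all 7 healthy libraries, where 0 of 32059 reads allow up to 93.6 RPM. let-7f, miR-30e-5p and miR-425-5p held 12, 6 and 5 reads in subclinical 4 and 1 to 2 reads in 1 other subclinical library each, with 0 in healthy libraries. The limma adjusted p of these 5 was 0.342 each, and 0.550 or more without subclinical 4.

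Named miRNAs were a minor part of the reads except in subclinical 4. They took 0.355%, 0.224%, 0.1%, 12.7%, 0.235%, 0.152% and 0.188% of the reads in subclinical 1, 2, 3, 4, 5, 6 and 8, against 0.186%, 0.0209%, 0.0785%, 0.159%, 0.734%, 0.0160% and 0% in healthy 1, 2, 3, 4, 5, 6 and 9, where the 0 reads of healthy 9 allow up to 0.0569%. Subclinical 4 lay far above all others, and healthy 5 was the highest of the rest. The mean share was 2% ± 4.73 in subclinical and 0.171% ± 0.259 in healthy libraries (exact permutation p = 0.397), and 0.209% ± 0.0869 in subclinical libraries without subclinical 4 (exact permutation p = 0.815).

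The number of named miRNAs above 0 was 12, 3, 3, 68, 7, 5 and 3 in subclinical 1, 2, 3, 4, 5, 6 and 8, against 5, 1, 2, 3, 4, 1 and 0 in healthy 1, 2, 3, 4, 5, 6 and 9. The groups overlapped between 3 and 5. The mean was 14.4 ± 23.8 in subclinical and 2.29 ± 1.80 in healthy libraries (SD, n = 7 each; exact permutation p = 0.0315, adjusted p = 0.189 over the 6 measures), and 5.50 ± 3.56 in subclinical libraries without subclinical 4 (exact permutation p = 0.0524, adjusted p = 0.315). The exact permutation p, before adjustment, was 0.0839 to 0.174 without any 1 of the 7 healthy libraries. At the 954 reads of the shallowest library the expected number was 38.7 in subclinical 4, 0.855 to 3.27 in the other 6 subclinical libraries and 0 to 4 in healthy libraries. The means there differed by 5.99 (exact permutation p = 0.146), and by 0.73 without subclinical 4 (exact permutation p = 0.292). In the other 6 subclinical libraries 24 named miRNAs were above 0, against 14 in the 7 healthy libraries, and 5 were in both. Named miRNAs other than miR-21-5p pooled to 1485 RPM (Poisson 95% interval 1002 to 2120) in the other 6 subclinical libraries. In healthy libraries they pooled to 624 RPM (381 to 963). These intervals cover counting error only and not the spread between cows, and the difference of the pooled values was not tested. Subclinical 1 alone held 14 of the 41 named reads of those 6 libraries, and healthy 1 held 8 of the 25 healthy ones, miR-21-5p included.

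Most named miRNAs outside subclinical 4 were seen as 1 or 2 reads of a single library. In subclinical libraries, let-7b, of the let-7 family that restrains growth and stem cell genes, held 1 read each in subclinical 1 and subclinical 8, against 3 reads in healthy 4 and 1 in healthy 6. let-7a-5p held 0 of 20197 reads in the other 6 subclinical libraries, which allows up to 149 RPM, and 2 reads in healthy 2. miR-30a-5p, of the miR-30 family, held 2 reads in subclinical 5 and 1 in subclinical 6, against 1 in healthy 5. miR-143, which is typical of smooth muscle and stromal cells, held 1 read each in subclinical 1 and healthy 1. The highest count of a named miRNA in any healthy library was 4 reads, of miR-574 in healthy 1 and of miR-21-5p in healthy 5. No direction can be read from such counts.

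In subclinical 4, 381 of 2994 reads were named (12.7%, exact 95% interval 11.6% to 14%), and 51 of its 68 named miRNAs were above 0 in no other of the 14 libraries. Of the 68, 25 held 1 read, 29 held 2 to 4 and 14 held 5 or more, and those 14 carried 282 of the 381 reads. The leading one was miR-21-5p with 5.44% of all reads (4.66% to 6.32%). It was followed by miR-30a-5p with 28 reads (0.935%, 0.622% to 1.35%), miR-24-3p, of the miR-23/27/24 clusters, with 15 reads (0.501%, 0.281% to 0.825%), let-7f with 12 (0.401%, 0.207% to 0.699%) and miR-92a, of the miR-17 cluster known for promoting proliferation, with 9 (0.301%, 0.138% to 0.570%). miR-26a, miR-27b, miR-30d and miR-7 held 7 reads each, miR-23a and miR-30e-5p 6, and let-7a-5p, let-7i and miR-425-5p 5.

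**Figure D4:**
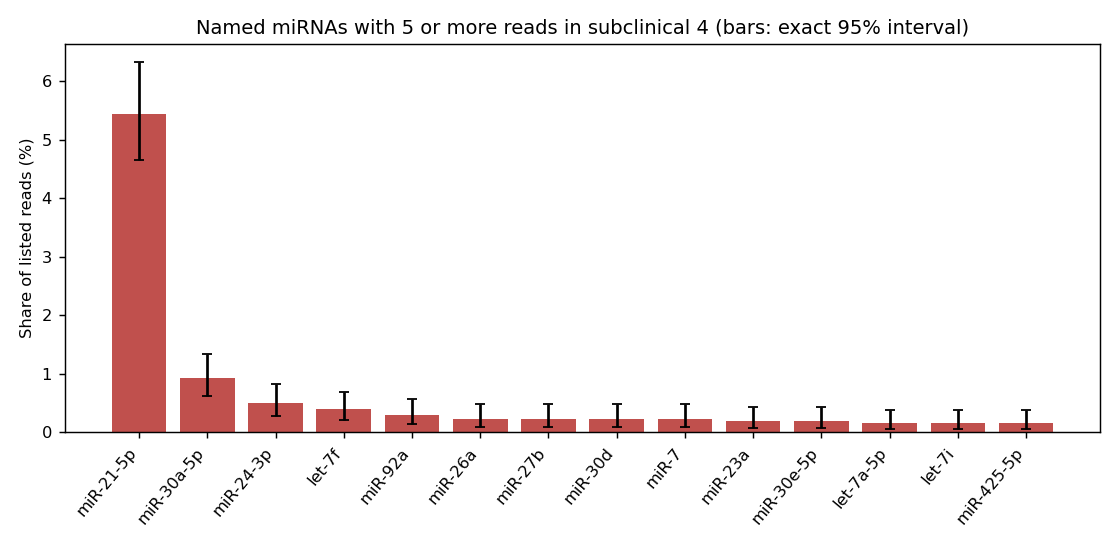
Share of the 2994 listed reads of subclinical 4 (%, vertical axis) for its 14 named miRNAs with 5 or more reads, with exact 95% intervals for counting error. miR-21-5p at 5.44% stands above miR-30a-5p at 0.935%, and the other 12 lie at 0.167% to 0.501%.

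The provisional reads of subclinical 4 lay mostly within the range of the other libraries. Taken as shares of provisional reads, 16 of the 19 entries above 0 in all 14 libraries lay within the range of the other 13 libraries, and 11 within that of the other 6 subclinical ones. Outside the range of the 13 were 2_2859 (0.498%, against 0.0509% to 0.225% in the other subclinical and 0.140% to 0.317% in healthy libraries) and 26_37774 (2.07%, against 0.362% to 1.07% and 0.459% to 1.58%). The third was 13_22779 (0.230%, against 0.254% to 0.564% and 0.432% to 2.69%), at the low end where the other subclinical libraries also lie. X_42271 took 33.2% of the provisional reads of subclinical 4, against 18.3% to 33.1% in the other subclinical and 18.1% to 34.6% in healthy libraries.

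Lists of miRNAs grouped by role gave almost no reads outside subclinical 4, and 0 of the members of any list passed the adjusted threshold, where 0% of all entries did. Of 15 miRNAs abundant in bovine milk, 13 were listed, and they held 244 reads in subclinical 4, 21 in the other 6 subclinical libraries and 12 in healthy libraries. The other members, miR-148a and miR-99a-5p, are not among the listed entries. The median log2 difference of the list was 1.6, against 1.2 over all entries. Both are values of miRNAs read in subclinical 4 alone: miR-27b, with 7 reads there, gives 1.6, and miR-106b, with 1 read, gives 1.2. With a pseudocount of 1, such medians give no size of a group difference. Of the 13, 2, miR-21-5p and miR-26a, had an unadjusted limma p under 0.05, where 4.76% of all entries did. Without subclinical 4, 8 of the 13 were tested, with a median of 1.38, against 0.26 over all entries tested, and 1 of them, miR-21-5p, had an unadjusted p under 0.05, where 6.58% of all entries did; for miR-26a the unadjusted limma p was 0.0506. Of 12 miRNAs that respond to inflammation or NF-kB, 4 were listed, miR-21-5p, miR-125b, miR-221 and miR-222, with 168 reads in subclinical 4, 11 in the other 6 and 5 in healthy libraries. Outside subclinical 4 all of those 11 and 5 reads were miR-21-5p. The median of this list was 1.34. Without subclinical 4 its other 3 members were at 0 in both groups and miR-21-5p alone, at 6.16, was tested.

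Members of 3 families were also read mainly in subclinical 4. The let-7 family, 6 of 9 members listed, held 28 reads in subclinical 4, 4 in the other 6 and 6 in healthy libraries. The miR-30 family, 4 of 6 listed, held 45, 5 and 1 reads in the same libraries. The miR-17 cluster and its paralogs, 7 of 15 listed, held 17, 1 and 1. The median log2 difference was 1.41 for the let-7 family, 2.23 for the miR-30 family and 1.2 for the miR-17 cluster, against 1.2 over all entries. These medians too depend on the reads of subclinical 4 and on the pseudocount of 1. Of the members, 0 had an unadjusted limma p under 0.05, where 4.76% of all entries did. Without subclinical 4 the medians were 0.35 over 5 tested members, 1.46 over 2 and -0.05 over 2, against 0.26 over all entries tested, and again 0 members had an unadjusted p under 0.05, where 6.58% of all entries did.

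Markers of the cells that could shed vesicles into milk were at or near the limit of detection. Of 9 leukocyte-enriched miRNAs 2 were listed, miR-181a and miR-181b, with 2 reads in subclinical 4, 1 in the other 6 subclinical libraries and 0 in healthy libraries, a range of 0 to 253.6 RPM per library in the other 6, 668 RPM in subclinical 4 and 0 in healthy libraries. The defining miR-223, miR-142-5p, miR-142-3p and miR-150 are not among the listed entries. Of 10 epithelial miRNAs 2 were listed under a bovine name, miR-182 and miR-183, with 4, 1 and 0 reads (1336 RPM in subclinical 4, 0 to 200.8 RPM per library in the other 6). The epithelial miR-200a, miR-200b, miR-200c, miR-141 and miR-205 are not among the listed entries. The human-named hsa-miR-203a-3p, not counted among these 2 although miR-203 is on the list, held 1 further read in subclinical 4 and 0 in the other 13 libraries. The mesenchymal list, miR-143 and miR-22-3p of 6, held 3, 2 and 1 reads (1002 RPM in subclinical 4, 0 to 507.2 in the other 6 and 0 to 233.1 in healthy libraries). miR-126-3p of endothelial cells held 1 read and miR-16b of red blood cells 2 reads, all in subclinical 4. The part of such sources in the named reads of subclinical 4 was not tested.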

How the data were processed

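Vesicle small RNA was prepared with miRNeasy and TruSeq kits, per the labels' protocols. Bowtie, edgeR and the build ARS-UCD1.2 are named without roles, per the submitters' processing notes; how reads were trimmed, annotated or given provisional identifiers is not given in the sources used here. The authors deposited 1 table of RPM values (named TPM there), each column summing to 1000000. Divided by the step of its library, each of the 629 values above 0 (100%) came within 0.01 of a whole number. The rule for count models asks for more low values per library than the most found here, 79, so none was run. The 3 columns of group means, equal to the means of their libraries within 4.29e-07 RPM, were not used, and 0 columns lacked a sample.

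limma-trend (limma 3.58.1, R 4.3.3) was fitted to log2(RPM + 1) over all 21 libraries and the entries whose mean reached 1 RPM, two-sided, with Benjamini-Hochberg adjustment and a threshold of 0.05; SEs are moderated. For library measures and ratios every regrouping of the 14 libraries was enumerated (Python 3.11.15, NumPy 2.4.6, SciPy 1.17.1, pandas 2.3.3, matplotlib 3.10.9). The test was run on simulated libraries with a single fixed spread, drawn from means that left out subclinical 4. That check held no library like subclinical 4. Its recovery of changes was counted only for entries of at least 1000 RPM, so it does not cover the scarce named miRNAs. Named entries were the 10 with the smallest p, the 10 most abundant, the 12 highest named miRNAs of subclinical 4, those whose groups do not overlap and up to 5 members per list; others are named for their count of reads and were chosen after their values were seen. The comparison, its entries and the lists were chosen with earlier results of these data known. Neighbours came from a RefSeq gene table of ARS-UCD2.0, in which 78 of 79 bovine names were found; as the build differs, no coordinates are given. Alternatives were other pseudocounts, scalings, filters, fits and tests, and each library left out.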

Additional observations from a re-analysis of the deposited data

Results flagged for a closer look

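Of 37 groups of 7 libraries examined, 7 held a library far from the others by Dixon's criterion (a gap that is too large a part of the group's range). For normally distributed values chance gives about 1 in 20 groups. The values here are shares and low counts, for which that rate need not hold. These groups also share libraries and reads and are not independent. Of the 7, 3 are subclinical 4, which had been set apart for its named miRNAs to begin with, so they repeat that choice and support nothing. In subclinical 4 the named-miRNA share was 12.7%, against 0.1% to 0.355% in the other 6 subclinical libraries, 68 named miRNAs were above 0, against 3 to 12, and miR-21-5p stood at 54442 RPM, against 254 to 1120 RPM. These 3 values are 1 pattern, since miR-21-5p is 163 of the 381 named reads. Healthy 5, the library with the fewest reads, had a named share of 0.734%, against 0% to 0.186% in the other healthy libraries. It also had 27_38734 at 2096 RPM (2 reads), against 0 to 393 RPM. Subclinical 8 had 27_38734 at 3285 RPM (7 reads), against 334 to 1406 RPM in the other subclinical libraries. Healthy 4 had 6_10969 at 6345 RPM, against 1048 to 3197 RPM in the other healthy libraries.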

How the results depend on the processing

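The number of entries changed, subclinical against healthy, was 0 in the fit reported. It was 1 with a pseudocount of 10, median-of-ratios scaling or no trend (each miR-21-5p). It was 2 with entries of identical values kept once, or without subclinical 4 and healthy 5 (miR-21-5p and 13_22779). With a mean of at least 1000 RPM it was 3 (those and 6_10969). In a fit of the 14 libraries alone it was 4, with or without subclinical 4 (without it, a setting chosen after seeing the data). Leaving out 1 library gave 0 to 1. Over 37 settings miR-21-5p passed in 11 (adjusted p 0.00169 to 0.441), 13_22779 in 5 (0.00292 to 0.328), 6_10969 in 3 (0.0184 to 0.389) and 27_38734 in 2 of 36 (0.0184 to 0.441); none reversed. With entries of identical values kept once 74 entries were tested and with the higher filter 20, so the adjustment is over fewer. The entries dropped as identical were mostly different miRNAs with equal reads in subclinical 4 alone, such as miR-27b, miR-30d and miR-7. For the other settings the cause was not tested. Over the entries above 0 in all 14 libraries, scalings shifted the log2 difference by a median of at most 0.0323. Directions of entries that did not pass reversed for 2_2827 (-0.17 to 0.018 with 1 library left out, above 0 without subclinical 3 or healthy 3), 26_37774 (-0.35 to 0.065, above 0 without subclinical 3 or healthy 5), bta-miR-23a (-1.12 without subclinical 4 to 1.57, and -1.31 without healthy 5 too), bta-let-7a-5p (-1.10 to 1.53, and -1.29, in the same settings) and bta-let-7b (-1.13 to 1.19, above 0 without subclinical 2, 3, 4, 5 or 6 or healthy 4 or 6; 0.35 in the fit of the 2 groups without subclinical 4). The named-miRNA share of listed reads, subclinical against healthy, differed by 0.038 to 2.14 percentage points with 1 library left out, and by 0.132 without subclinical 4 and healthy 5 (exact permutation p = 0.0238; healthy 5 is the highest healthy library in this measure, so this p supports no difference). The number of named miRNAs above 0, subclinical against healthy, differed by 12.1; with 1 library left out by 3.21 to 14, without subclinical 4 and healthy 5 by 3.50 and at a fixed number of reads by 5.99, or 0.73 without subclinical 4 too. The number of provisional entries above 0, subclinical against healthy, differed by -0.286, and by 0.803 at a fixed number of reads (exact permutation p = 0.515), or 0.961 without subclinical 4 too (exact permutation p = 0.468). For ratios between entries, subclinical against healthy, 20 pairs passed; 0 to 18 passed with 1 library left out, 0 without subclinical 4 and healthy 5, and 0 with the replicate block, whose smallest possible p is 0.0313. The replicate block gave 0 entries and miR-21-5p an adjusted p of 0.198. The groups are different cows, and deviations of same-numbered libraries correlated at -0.704 to 0.703, so the numbers were not taken as pairs. A single read was worth 104.3 to 1048 RPM, so no value above 0 in a library could be smaller than its own step. Over pooled reads, 0 reads allow up to 93.6 RPM in healthy libraries and 149 RPM in the other 6 subclinical libraries.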

Other observations

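Some of the named miRNAs of subclinical 4 come from genes that lie near each other. By the RefSeq gene table of ARS-UCD2.0, used here only for neighbours, 35 entries fall into 13 groups with genes within 10000 bases of each other; names that match several genes join groups. miR-23a, miR-23b-3p, miR-24-3p, miR-27a-3p and miR-27b, processed from 2 related clusters, were all above 0 in subclinical 4 with 32 reads, against 2 reads in the other 6 subclinical libraries and 1 in healthy libraries. The group of let-7a-5p, let-7b, let-7f, miR-98 and miR-100 held 21, 5 and 6 reads in the same libraries, miR-17-5p, miR-19a, miR-19b and miR-92a 12, 1 and 1, miR-30c and miR-30e-5p 10, 2 and 0, and miR-191 and miR-425-5p 7, 1 and 0. miR-25, miR-93 and miR-106b were each above 0 in subclinical 4 and held 5 reads together, with 0 elsewhere.

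Of the 37 provisional entries, 5 were at 0 in all 14 libraries and 13 were above 0 in some of them. Apart from 27_38734, those 12 held 2 to 22 reads over the 14 libraries. The highest was 18_30013, with 1, 3 and 3 reads in subclinical 5, 6 and 8 and 0 in the other subclinical libraries, against 2, 1, 5, 6 and 1 reads in healthy 1, 3, 4, 6 and 9 and 0 in healthy 2 and healthy 5. 17_28269 held 1, 1, 2 and 2 reads in subclinical 3, 4, 6 and 8, against 0 to 5 in healthy libraries.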
